A study of Mus musculus with 6 samples.

Results

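The genes described here encode the machinery that takes a cell from G1 into S phase and copies its DNA. They were chosen by symbol from a list of 33, all of which were found, among the 38087 genes of the table. The 33 comprise cyclins, a kinase and a transcription factor (Ccnd1, Ccne1, Ccne2, Cdk2, E2f1), origin licensing factors (Orc1, Cdc6, Cdt1, Mcm2 to Mcm7), helicase activators (Cdc45, Gins1, Gins2, Mcm10), polymerases and primase (Pola1, Prim1, Pole, Pold1), the clamp and lagging strand proteins (Pcna, Rfc3, Rfc4, Rpa2, Fen1, Lig1) and enzymes of nucleotide supply (Rrm1, Rrm2, Tyms, Tk1, Dut). The RNA was that of macrophages derived from marrow of C57BL/6J males, 8 to 10 weeks old. All cultures received 10 ng/ml of the growth factor M-CSF for 7 days and were then re-plated without it for 24 h. In 3 libraries the cells had then met 10 nM resolvin D1 (RvD1, a lipid mediator derived from docosahexaenoic acid) for 6 h, and in 3 they were untreated, with no vehicle described. Nothing in the labels ties the 3 libraries of each group to different animals or dishes. The p-values therefore reflect only how far these libraries vary, and that variation may be technical.

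In G1, growth factors such as M-CSF raise D-type cyclins, whose kinases inactivate the retinoblastoma protein and free E2F factors. E2F then switches on cyclin E and most genes of DNA replication, so their transcripts rise and fall together with the share of cells entering S phase. Origins are licensed when ORC, CDC6 and CDT1 load the ring of MCM2 to MCM7, which CDC45 and the GINS complex later turn into an active helicase. Macrophages derived with M-CSF divide in its presence and tend to leave the cycle when it is removed.

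Promoter sequences of these genes were searched for the element that E2F factors bind. RefSeq promoter windows on GRCm38.p6, from 250 bases before to 50 after a start, were found for 27 of the 33 genes. An E2F-type motif (TTTCCCGC, TTTGGCGC, TTTCGCGC or TTTGCCGC, on either strand, overlapping matches counted separately) was present for 12 of these 27 (44.4%), against 704 of all 27025 genes of that promoter table (2.60%). The CCAAT box, searched as CCAAT on either strand, was present for 16 of 27 (59.3%), against 41.1% of all genes. Some genes have several windows. By window the E2F-type share was 12 of 31 (38.7%) against 2.26% of 32851. The stretches of 7 members with a match before the start are shown because they carry the shared element. Each gives the 170 bases before the start, 5′ to 3′ along the transcribed strand, with matches in capitals.
Cdk2 (chr10:128705052-128705221, minus strand): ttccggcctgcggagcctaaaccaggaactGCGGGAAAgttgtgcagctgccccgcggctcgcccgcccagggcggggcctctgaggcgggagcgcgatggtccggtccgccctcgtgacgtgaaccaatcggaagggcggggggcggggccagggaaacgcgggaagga
Orc1 (chr4:108579284-108579453, plus strand): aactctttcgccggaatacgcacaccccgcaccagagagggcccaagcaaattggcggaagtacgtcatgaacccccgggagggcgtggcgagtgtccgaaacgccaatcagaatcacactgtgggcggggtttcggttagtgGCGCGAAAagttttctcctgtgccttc
Cdc6 (chr11:98907981-98908150, plus strand): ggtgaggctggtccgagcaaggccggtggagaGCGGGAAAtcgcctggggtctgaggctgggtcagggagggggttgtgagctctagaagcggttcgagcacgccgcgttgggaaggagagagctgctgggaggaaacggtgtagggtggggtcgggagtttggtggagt
Mcm5 (chr8:75109339-75109508, plus strand): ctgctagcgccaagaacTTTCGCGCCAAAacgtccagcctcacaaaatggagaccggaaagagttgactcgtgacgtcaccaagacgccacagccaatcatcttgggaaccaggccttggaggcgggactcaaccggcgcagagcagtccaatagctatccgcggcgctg
Mcm6 (chr1:128359706-128359875, minus strand): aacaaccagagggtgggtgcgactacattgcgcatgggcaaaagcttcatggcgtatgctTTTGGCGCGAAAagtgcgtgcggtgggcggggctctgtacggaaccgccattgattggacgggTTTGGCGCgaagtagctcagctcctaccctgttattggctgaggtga
Pola1 (chrX:93632156-93632325, minus strand): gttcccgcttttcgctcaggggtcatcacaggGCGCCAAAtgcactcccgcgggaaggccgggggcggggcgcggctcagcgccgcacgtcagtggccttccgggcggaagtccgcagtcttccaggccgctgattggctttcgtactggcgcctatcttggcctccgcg
Rfc3 (chr5:151651209-151651378, minus strand): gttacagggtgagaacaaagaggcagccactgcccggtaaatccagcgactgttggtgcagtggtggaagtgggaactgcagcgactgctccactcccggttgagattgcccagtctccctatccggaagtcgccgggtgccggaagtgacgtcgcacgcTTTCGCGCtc
In Mcm5 the capitals hold a pair of overlapping matches on opposite strands, and Mcm6 has 3 matches, 2 of them overlapping. Rfc3 had a further match right after its start, beyond the bases shown. The other members with a match were Mcm7, on both sides of its start, and Mcm3, Cdt1, Lig1 and Pold1, after it. A match is a description of the letters and not a shown binding site. The log2 fold changes with RvD1 had a median of -0.08 (range -0.46 to 0.31) over the 12 genes with a match and -0.10 (-0.25 to 0.13) over the 15 without.

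The depth of the libraries, estimated from the smallest step between low values, was 9.05 to 14.3 M reads untreated and 11.2 to 16.3 M with RvD1. All 33 genes were above 0 in every library and passed the filter on low values (above 0 in at least 3 libraries), with log2 values from 6.07 to 11.8. Of 8 macrophage markers, all were detected, with Csf1r, the M-CSF receptor, at 14.08 to 14.39 (log2). Markers of fibroblasts and stroma were present too: Col1a1 lay between 13.83 and 14.39, and the summed level of 6 such genes ranged from 15.31 to 15.54 untreated and 15.17 to 15.81 with RvD1, with 0 at 0 in all libraries. Summed levels of 7 granulocyte genes ranged from 11.14 to 12.93 and 11.49 to 12.92. Of 6 T and NK cell genes 1, Cd3e, was at 0 in every library, while Cd4 reached 7.24. Of 4 B cell genes 2 were at 0 throughout, and Cd79b lay between 4.74 and 5.42. Of 4 erythroid genes 2 were at 0 throughout, and no value exceeded 1.47. The summed level of 4 progenitor genes did not overlap between the groups (12.45 to 12.54 untreated and 12.67 to 12.84 with RvD1). Almost all of that sum was Cd93 (12.43 to 12.82), while Kit, Cd34 and Flt3 overlapped between the groups. Of all tested genes, 25.4% were apart in either direction. The part of this sum in the results was not tested. No marker passed the test between groups. In bulk RNA, fewer cycling cells and less of a transcript per cycling cell cannot be told apart.

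The replication genes were well expressed in the untreated cultures 24 h after M-CSF was withdrawn. Which cell types held these transcripts cannot be told from bulk RNA. Per kilobase of longest transcript, the highest untreated level was that of Pcna, the sliding clamp that holds polymerases on DNA (10.93, log2 normalized reads per kilobase). It was followed by Ccnd1, the D-type cyclin that couples growth factor signals to the cycle (9.74), Rrm2 (9.39), Mcm6 (9.13) and Rrm1 (8.92). The lowest were Orc1, the largest ORC subunit (4.83), the licensing factor Cdc6 (5.45) and Mcm10, an initiation factor (5.88). The 6 MCM2 to MCM7 subunits, which form a ring with 1 copy of each, lay between 8.02 for Mcm7 and 9.13 for Mcm6 on this scale. The helicase activators Cdc45, Gins1, Gins2 and Mcm10 lay below every MCM ring subunit, at 5.88 to 7.12. Among catalytic subunits of polymerases, Pold1 stood at 7.53, Pola1 at 6.19 and Pole at 6.00. These comparisons between genes rest on the longest annotated transcript and were not tested.

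**Figure D1:**
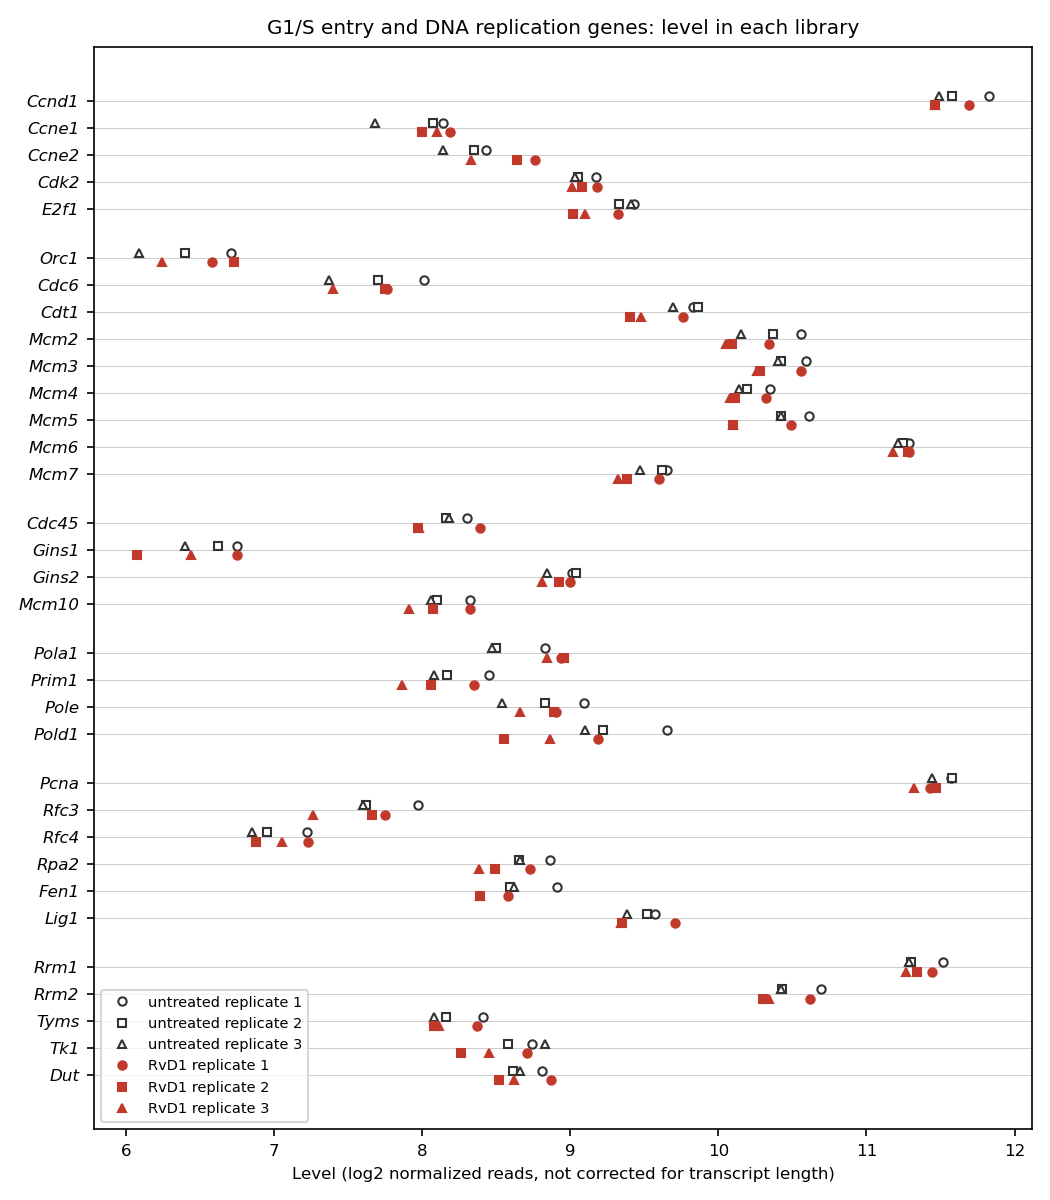
Level of each of the 33 genes in each library (x axis, log2 normalized reads, not corrected for transcript length), grouped by role from top to bottom, with open symbols for untreated and filled symbols for RvD1 libraries. Values run from 6.07 (Gins1) to 11.83 (Ccnd1), and for most genes the filled and open symbols overlap.

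With RvD1 no gene of the 33 changed past the test when treatment alone was fitted. The labels do not say whether same-numbered libraries are pairs, and a fit with the number as a block is given at the end. Of the 33, 0 were higher and 0 lower (limma, Benjamini-Hochberg adjusted over 18899 genes, threshold 0.05), while 1.12% of all tested genes were called, 0.561% higher and 0.556% lower. In limma without adjustment, 6 genes had a p under 0.05, with Pola1 (1 gene) above and E2f1, Pold1, Cdt1, Fen1 and Mcm5 (5 genes) below the untreated level. The background at that level was 10.3% of genes higher and 9.65% lower. The groups did not overlap for 3 of the 33 genes, Pola1 on the higher side and E2f1 and Fen1 on the lower, where 12.6% and 12.8% of all genes were apart (25.4% in either direction). The counts of genes apart were thus below that background. At an unadjusted p under 0.05 in limma, the 1 gene higher was below its background and the 5 lower were above theirs.

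The intervals, taken gene by gene without adjustment, give the size of the differences as far as the variation of these libraries shows it. For 31 of the 33 the 95% interval lay within 1.5-fold of no change (0.58 on the log2 scale), as it did for 60.4% of all tested genes and for 85.3% of those averaging 5 or more on the log2 scale. The exceptions were Pold1 and Gins1, whose intervals reached -0.86 and -0.59. Of the 33 log2 fold changes, 27 were below 0 against 49.2% of all tested genes, with a median of -0.09 against 0.00. The split depends on single libraries: without untreated replicate 1 the signs were 17 below and 16 above 0 and the median was -0.003. Without RvD1 replicate 2 or 3, 23 and 19 were below 0 and the medians were -0.05 and -0.02. It was stronger without untreated replicate 3 (31 below 0, median -0.14) and without RvD1 replicate 1 (29 below 0, median -0.17), and without untreated replicate 2 it was 27 and -0.10. Without RvD1 replicate 1, 1 gene of the 33, Mcm5, passed (limma adjusted p = 0.0465), where 451 of all 18899 genes did.

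**Figure D2:**
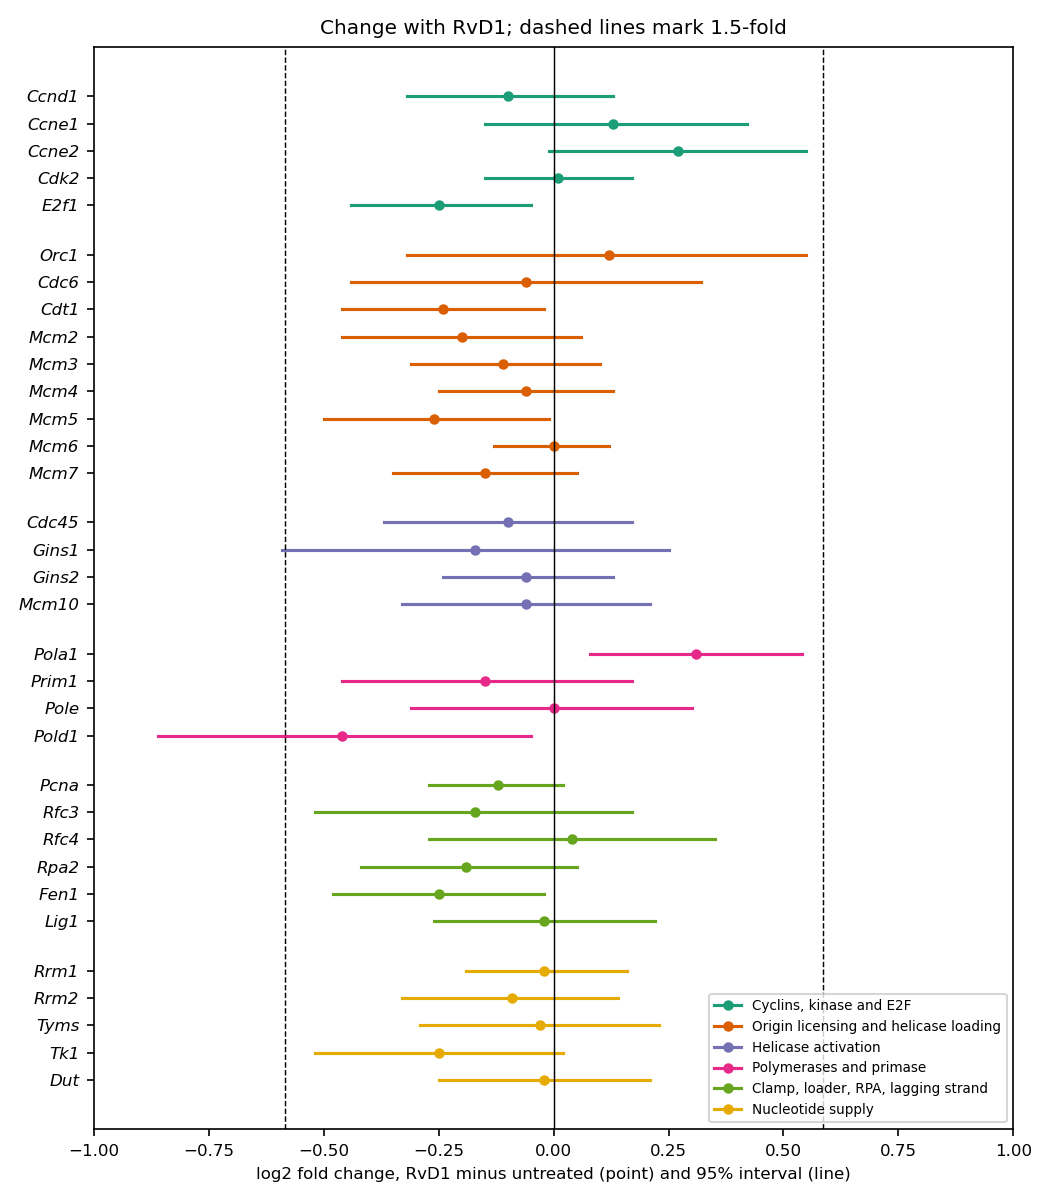
Log2 fold change of each gene, RvD1 minus untreated (point), with its 95% interval from limma (line, n = 3 per group), coloured by role; dashed lines mark 1.5-fold in either direction. Only the intervals of Pold1 and Gins1 cross a dashed line, and most points sit slightly left of 0.

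The libraries differed in these genes within each group. Untreated replicate 1 held the highest untreated value for 29 of the 33 genes and RvD1 replicate 1 the highest RvD1 value for 30. As deviations from each gene's own mean over the 6 libraries, the median of the 33 was 0.17, 0.00 and -0.06 (log2) in untreated replicates 1, 2 and 3. In RvD1 replicates 1, 2 and 3 it was 0.11, -0.12 and -0.15. Over all genes averaging 5 or more on the log2 scale the same median was 0.00 in every library. RvD1 replicate 1 thus lay above untreated replicates 2 and 3, and the groups overlapped.

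Other measures moved with replicate 1 as well. The summed level of the stromal markers was highest in replicate 1 of both groups (15.54 and 15.81). So was that of 4 endothelial markers, at 9.07 against 8.34 and 8.68 untreated and at 10.2 against 8.71 and 9.21 with RvD1. The sum of the granulocyte markers was lowest there (11.14 and 11.49). The macrophage markers' sum was lowest there too (16.58 and 16.65). These sums rest mostly on a few genes, such as Col1a1 and Col1a2 for stroma and Ngp and Ltf for granulocytes. Not every gene followed them. The stromal gene Dcn was lowest in replicate 1 of both groups (4.53 and 5.28). The granulocyte genes Mpo (4.03 and 3.82) and Prtn3 (3.73 and 2.99) were lowest in replicate 2. The part of these cell types in the level of the replication genes was not tested. The median standard deviation of the 33 was 0.14 untreated and 0.17 with RvD1, against 0.10 and 0.11 over all genes with a mean of at least 5.

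**Figure D3:**
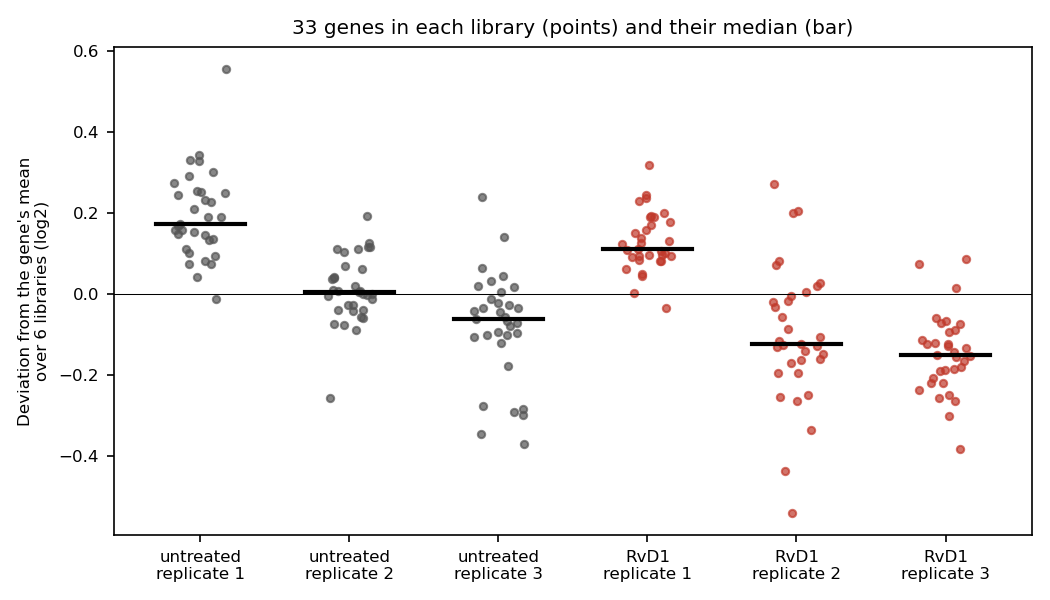
Deviation of each of the 33 genes from its own mean over the 6 libraries (y axis, log2; points), by library (x axis), with the median as a bar. Replicate 1 of both groups stands highest (medians 0.17 and 0.11), and the lowest median is that of RvD1 replicate 3 (-0.15).

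Among the regulators of S phase entry, 0 of 5 passed the test. E2f1, the activator that turns on the replication programme (chromosome 2, 154559407 to 154569892, minus strand, mm10), had log2 values of 9.43, 9.33 and 9.41 in untreated replicates 1, 2 and 3 and 9.32, 9.02 and 9.10 with RvD1. All RvD1 values lay below all untreated ones, but RvD1 replicate 1 and untreated replicate 2 nearly met. Its log2 fold change was -0.25 (95% interval -0.44 to -0.05, limma adjusted p = 0.160). Ccne2, a cyclin E that activates CDK2, leaned the other way. It stood at 8.43, 8.35 and 8.14 untreated and 8.76, 8.64 and 8.33 with RvD1, and its groups overlapped. The difference was 0.27 on the log2 scale (-0.01 to 0.55, limma adjusted p = 0.266). Ints8, on the opposite strand, shares 609 of the 3495 exon bases of Ccne2. It had a log2 fold change of 0.21 (limma adjusted p = 0.163), and the part of shared reads was not tested. Ccne1, the paralog of Ccne2, had 7.97 ± 0.25 and 8.10 ± 0.10 (log2, SD, n = 3). Ccnd1 had 11.63 ± 0.18 and 11.54 ± 0.14, and Cdk2, the kinase of cyclin E, 9.08 ± 0.08 and 9.09 ± 0.09. The interval of Cdk2 ran from -0.15 to 0.17.

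Of the 9 licensing genes 0 passed, and 8 log2 fold changes were below 0 (median -0.11). Cdt1, which brings the MCM ring to origins and is degraded once S phase starts, was 9.83, 9.86 and 9.69 untreated and 9.76, 9.40 and 9.48 with RvD1, in replicate order. The groups overlapped through RvD1 replicate 1. The log2 fold change was -0.24 (-0.46 to -0.02, limma adjusted p = 0.210). Mcm5, a ring subunit, was 10.61, 10.42 and 10.42 untreated and 10.49, 10.10 and 10.10 with RvD1. Here too RvD1 replicate 1 lay inside the untreated range, and the log2 fold change was -0.26 (-0.50 to -0.01, limma adjusted p = 0.239). Without that library it was -0.39.

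The other ring subunits spread between those values and no difference. Mcm2 went from 10.36 ± 0.20 to 10.16 ± 0.16 (log2, SD, n = 3) and Mcm7 from 9.58 ± 0.10 to 9.43 ± 0.15. Mcm3 had a log2 fold change of -0.11 (-0.31 to 0.10) and Mcm4 of -0.06 (-0.25 to 0.13). Mcm6 had the smallest untreated standard deviation of the 33, at 11.25 ± 0.04 and 11.25 ± 0.06, with an interval of -0.13 to 0.12. Orc1 had 6.40 ± 0.31 and 6.51 ± 0.25. Cdc6, the ATPase that works with ORC, had 7.69 ± 0.32 and 7.64 ± 0.20.

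All 4 helicase activators had small negative values and 0 passed. The smallest p belonged to Gins1, a subunit of the GINS complex, at 6.75, 6.62 and 6.40 untreated and 6.75, 6.07 and 6.44 with RvD1. The RvD1 libraries spanned the untreated range, and the difference was -0.17 on the log2 scale (-0.59 to 0.25, limma adjusted p = 0.651). Without RvD1 replicate 2 it was 0.00199. Gins2, another GINS subunit, had 8.97 ± 0.11 and 8.91 ± 0.09 (log2, SD, n = 3). Cdc45, the helicase cofactor, had 8.21 ± 0.07 and 8.12 ± 0.24, and Mcm10 8.16 ± 0.14 and 8.10 ± 0.21. The gene Gse1 on the opposite strand shares 2758 of the 4097 exon bases of Gins2, and reads of the pair cannot be told apart without strand.

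The polymerase genes held both ends of the list, and again 0 of 4 passed. Pola1, the catalytic subunit of the polymerase that starts each strand with primase (chromosome X, 93304767 to 93632155, minus strand), stood at 8.83, 8.50 and 8.47 untreated and 8.94, 8.96 and 8.84 with RvD1. All RvD1 values were above all untreated ones, the nearest pair being untreated replicate 1 and RvD1 replicate 3. Its fold was 1.24 (1.06 to 1.46, limma adjusted p = 0.145). Pold1, the catalytic subunit of the lagging strand polymerase (chromosome 7, 44532746 to 44548849, minus strand), stood at 9.65, 9.22 and 9.10 untreated and 9.19, 8.55 and 8.86 with RvD1. Its fold was 0.729 (0.551 to 0.965, limma adjusted p = 0.203), the lowest of the 33, and RvD1 replicate 1 lay within the untreated range. The log2 fold change of Pold1 was -0.46 with all libraries, -0.29 without untreated replicate 1 and -0.30 without RvD1 replicate 2. Pole, the leading strand polymerase, had 8.82 ± 0.27 and 8.82 ± 0.13 (log2, SD, n = 3), and Prim1, the primase, 8.24 ± 0.19 and 8.09 ± 0.25.

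Of the 6 genes of the clamp, its loader, single-strand binding and the lagging strand, 0 passed. Fen1, the flap nuclease that trims Okazaki fragments, was 8.91, 8.59 and 8.62 untreated and 8.58, 8.39 and 8.39 with RvD1, so the groups were just apart. Its log2 fold change was -0.25 (-0.48 to -0.02, limma adjusted p = 0.214) and became -0.15 without untreated replicate 1. Gm10143, on the opposite strand, shares 1909 of the 2422 exon bases of Fen1 and had a like level (8.72 in untreated replicate 1). With the antilogs of both summed, an alternative chosen after seeing the data, the log2 fold change was -0.24 (SE 0.09, limma adjusted p = 0.207). Pcna was 11.57, 11.58 and 11.44 untreated and 11.43, 11.47 and 11.32 with RvD1 (log2 fold change -0.12, -0.27 to 0.02). The pseudogene Pcna-ps2 was listed at 11.25, 11.24 and 11.19 and at 11.16, 11.33 and 11.05, close to Pcna itself, so the authors' counting may have divided reads between them. Summed in the same way, the pair differed by -0.09 on the log2 scale (SE 0.07, limma adjusted p = 0.510).

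The remaining genes of that group differed little. Rpa2, part of the single-strand binding protein RPA, had 8.72 ± 0.12 and 8.53 ± 0.18 (log2, SD, n = 3). The clamp loader subunits Rfc3 and Rfc4 had log2 fold changes of -0.17 (-0.52 to 0.17) and 0.04 (-0.27 to 0.35). Lig1, the ligase that seals Okazaki fragments, had 9.49 ± 0.10 and 9.47 ± 0.21.

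In nucleotide supply 0 of 5 passed. Tk1, the thymidine kinase of S phase cells, had the smallest p: it was 8.74, 8.58 and 8.83 untreated and 8.71, 8.26 and 8.45 with RvD1, with overlap through RvD1 replicate 1. The log2 fold change was -0.25 (-0.52 to 0.02, limma adjusted p = 0.287) and -0.14 without RvD1 replicate 2. The ribonucleotide reductase subunits, which make deoxynucleotides, stayed close: Rrm1 had 11.37 ± 0.13 and 11.35 ± 0.09 (log2, SD, n = 3) and Rrm2 10.51 ± 0.16 and 10.42 ± 0.17. Tyms, thymidylate synthase, had 8.22 ± 0.17 and 8.19 ± 0.16. Dut, which removes dUTP, had 8.69 ± 0.11 and 8.67 ± 0.18.

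The fold changes of the 33 varied with the base composition of the transcripts. Ccne2 and Pola1, the most positive, had the lowest GC contents (36.3% and 41.5%), and Pold1, the most negative, had the highest (61.0%). Across the 33 genes Pearson's r between GC content and log2 fold change was -0.67 and Spearman's rho -0.51. Over 13024 genes with a mean of at least 5 they were -0.51 and -0.57. These are correlations across genes of the same 6 libraries, which are not independent replicates. After splines in transcript length and GC content were subtracted from each library, r and rho over the 33 were -0.13 and 0.05. The splines were fitted to GC content over all genes, so a smaller correlation is largely built into the correction. A treatment effect that followed GC content would be removed too.

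Several single values moved under that correction. Pola1 went from 0.31 to 0.12 (SE 0.09, limma adjusted p = 0.657), Ccne2 from 0.27 to 0.04, E2f1 from -0.25 to -0.10, Cdt1 from -0.24 to -0.10 and Pold1 from -0.46 to -0.29. Rrm1 went the other way, from -0.02 to -0.18, and Pcna from -0.12 to -0.18. In limma 0 of the 33 passed after it, while Pcna, Rrm1 and Mcm5 had an unadjusted p under 0.05, 3 on the lower side and 0 on the higher. Over all genes with the correction, 7.38% were lower and 4.74% higher at that level. The median of the 33 was -0.10 with it, and 28 were below 0.

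**Figure D4:**
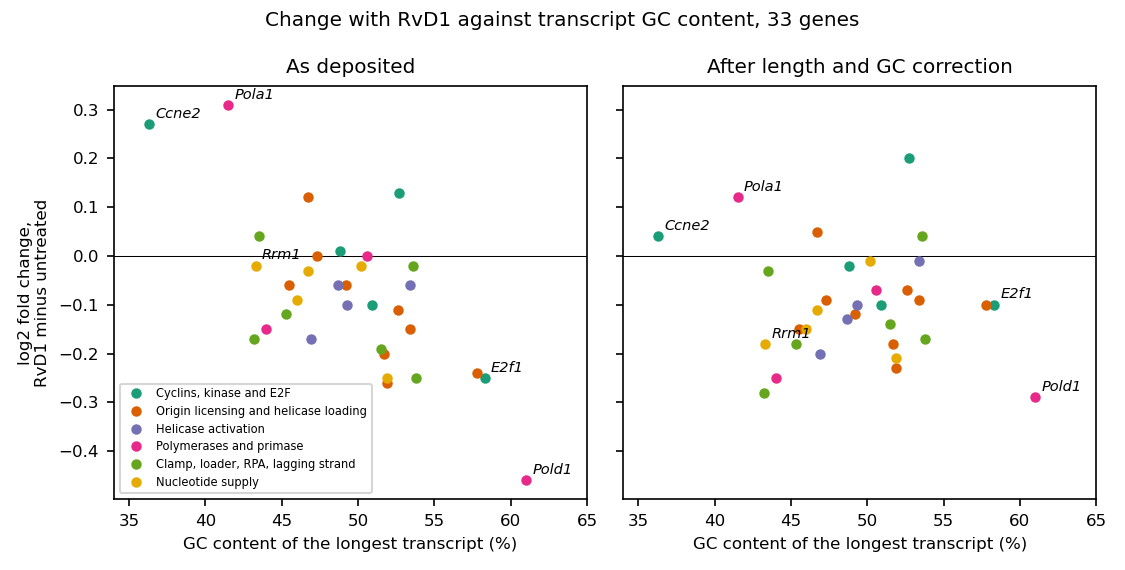
Log2 fold change, RvD1 minus untreated (y axis), against the GC content of the longest transcript (x axis, %), for the 33 genes coloured by role, as deposited (left) and after the length and GC correction (right). Ccne2 and Pola1 at low GC and Pold1 at high GC mark the slope on the left (r = -0.67). On the right, where the correction takes out the GC trend by construction, r is -0.13.

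Of 81 further genes of G1/S control and replication, 0 passed in limma, and their median log2 fold change was -0.01. At an unadjusted p under 0.05 in limma, 10 were higher and 9 lower, near the 10.3% and 9.65% of all genes. Of the 17 genes of licensing and origin firing outside the 33, 13 were above 0 (median 0.09). The ORC subunits Orc2 and Orc3 had log2 fold changes of 0.25 (0.11 to 0.38, limma adjusted p = 0.0813) and 0.30 (0.13 to 0.48, limma adjusted p = 0.0858). Rbl2, which encodes the retinoblastoma relative p130 of resting cells, was 9.19, 9.21 and 9.22 untreated and 9.36, 9.51 and 9.53 with RvD1 (0.26, 0.11 to 0.40, limma adjusted p = 0.0841). For these 3 genes all RvD1 libraries lay above all untreated ones, as they did for 12.6% of all genes. Corrected for length and GC content, these 17 had a median of -0.02. Of 7 inhibitors of cyclin-dependent kinases 0 passed (median -0.12). An unadjusted p under 0.05 in limma was found for 1 above and 3 below the untreated level. The share of all genes was again 10.3% above and 9.65% below. Cdkn1a (p21) had 11.60 ± 0.03 and 11.66 ± 0.04 (log2, SD, n = 3). Cdkn1b (p27) had 8.52 ± 0.04 and 8.72 ± 0.13, a difference of 0.20 (0.02 to 0.38, limma adjusted p = 0.208). The 3 below, named after their values were seen, were Cdkn2a (-0.76, limma adjusted p = 0.166), Cdkn2b (-0.56, limma adjusted p = 0.125) and Cdkn2d (-0.38, limma adjusted p = 0.129), which encode INK4 inhibitors of the cyclin D kinases. The groups of Cdkn2b and Cdkn2d did not overlap, on the lower side where 12.8% of all genes were apart. With the length and GC correction Orc2 went to 0.14, Orc3 to 0.11, Rbl2 to 0.16, Cdkn1a to 0.16 and Cdkn1b to 0.06. Cdkn2a went to -0.55, Cdkn2b to -0.42 and Cdkn2d to -0.25, and the median of the 7 inhibitors to 0.03.

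For comparison, 1 of 18 mitosis genes passed. Ccnb2, a mitotic cyclin, was 8.31, 8.25 and 8.20 untreated and 7.81, 7.47 and 7.75 with RvD1, and fell, with a fold of 0.672 (0.571 to 0.790, limma adjusted p = 0.0446). It passed without RvD1 replicate 1 (limma adjusted p = 0.0404) and did not pass when any other single library was left out (limma adjusted p from 0.123 to 0.167). With the length and GC correction Ccnb2 did not pass (log2 fold change -0.57, limma adjusted p = 0.0946). The next smallest p-values on the lower side were those of Cdc20, an activator of the anaphase-promoting complex (-0.43, limma adjusted p = 0.0603), and Ccnb1 (-0.35, limma adjusted p = 0.0854). Mki67, the proliferation marker, was 11.56, 11.39 and 11.28 untreated and 11.81, 11.65 and 11.56 with RvD1 (0.27, 0.06 to 0.47, limma adjusted p = 0.151), and its difference was 0.09 with the length and GC correction. The mitosis list had a median of -0.11, with 6 genes apart on the lower side and 0 on the higher, where 12.8% and 12.6% of all genes were apart. The median of the 33 replication genes was -0.09, with 2 and 1. Whether the lists differ was not tested.

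**Figure D5:**
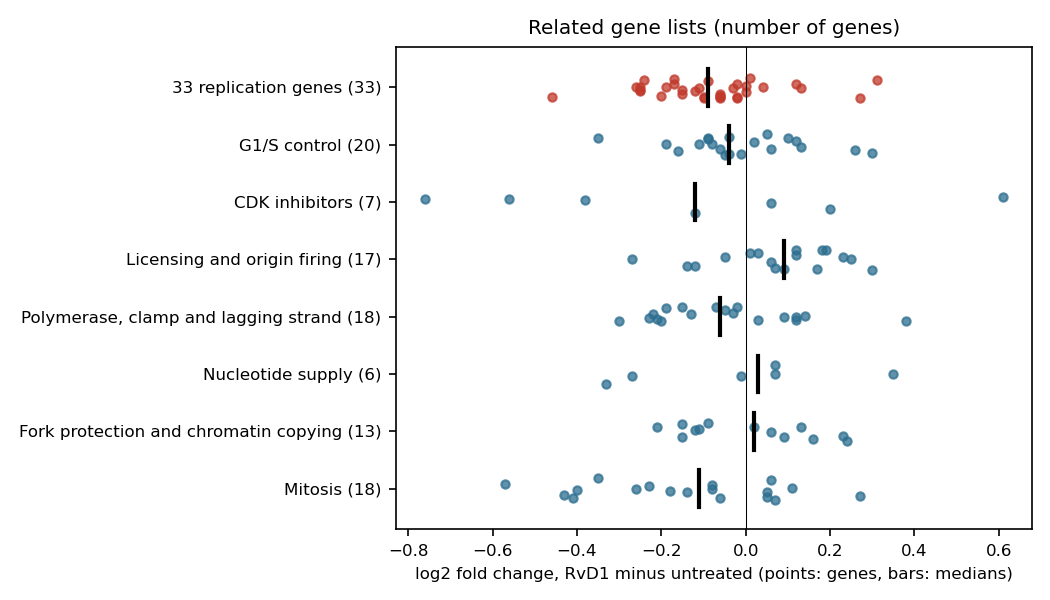
Log2 fold change, RvD1 minus untreated (x axis), of each gene (points) and the median (bars) for the 33 replication genes and for 7 lists of related genes, with the number of genes in parentheses. The medians, without the length and GC correction, lie between -0.12 (CDK inhibitors) and 0.09 (licensing and origin firing).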

How the data were processed

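Poly-A RNA of 6 libraries was sequenced after TruSeq preparation, per the labels' protocols. Groups came from the sample titles. The submitters' processing notes name TopHat2 2.0.7 and mm10. How reads were counted and normalized is not given in the sources used here. A single table was deposited, which the authors call normalized values. They were read here as log2 normalized read numbers: none lay below 0, and the antilogs summed to 12.4 to 12.8 M in each library. A 0 stands for 1 normalized read or less. Only 40.9% to 51.6% of low values were whole to within 0.02 reads, and no count test was run.

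limma 3.58.1 (R 4.3.3, limma-trend, two-sided, treatment only) was fitted to 18899 genes above 0 in at least 3 libraries, with 4 residual and 4.62 prior degrees of freedom. Adjustment was by Benjamini-Hochberg over all genes, at 0.05. The fit was also run on simulated data. These held no shift shared by the genes of a library and no GC trend, so that run does not cover either. GENCODE M21 (mm10) gave coordinates, transcript lengths and GC content for 95.3% of identifiers, and RefSeq gave promoters. The correction for length and GC content used natural splines with 4 knots. The 33 genes and the lists were chosen with earlier results of these data known. Values by library are given for members past the test or at an unadjusted p under 0.05, the smallest p in each role, and others chosen after their values were seen (Ccne2, Pcna). Of the related genes, those past the test, the 3 smallest p-values in each direction, Cdkn1a, Cdkn1b, Mki67 and Ccnb2 are named. Alternatives covered filters, a pseudocount of 16, other scalings, no variance trend, a replicate block, the length and GC correction and leaving out each library.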

Additional observations from a re-analysis of the deposited data

How the results depend on the processing

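With all 6 libraries, 0 of the 33 genes passed in limma under every filter, pseudocount and scaling tried, without a variance trend, and with the length and GC correction. With the replicate number as a block 7 of the 33 passed (Ccne2 and Pola1 higher, E2f1, Mcm2, Mcm5, Pold1 and Fen1 lower), where 1896 of all 18899 genes did. With the block and the correction together 3 of the 33 passed (Mcm5, Pcna and Rrm1, all lower), where 771 of all 18549 genes did. The labels do not say whether same-numbered libraries are pairs. Deviations of same-numbered libraries correlated at 0.301, -0.080 and 0.417 for numbers 1, 2 and 3. Untreated replicate 2 correlated best with RvD1 replicate 1 (0.088). Summed granulocyte markers rose with the number in both groups (11.14, 11.8 and 12.93 untreated, 11.49, 11.9 and 12.92 with RvD1). The macrophage sums did too (16.58, 16.7 and 16.97 untreated, 16.65, 16.79 and 17.01 with RvD1). Whether the numbers pair the samples thus cannot be told. Leaving out 1 library gave 0 to 1 calls among the 33, and their median ranged from -0.169 to -0.003.

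Over all genes 211 were called. This became 12 with no filter, 464 at a mean of at least 5, 1 without a trend, 1896 with the block, 29 with the length and GC correction, 771 with both, and 0 to 451 without 1 library. Of the 99 related genes 1 was called, against 0 with no filter, with the pseudocount, without a trend or with the correction, 2 at a mean of at least 5, 13 with the block, 8 with block and correction, and 0 to 5 without 1 library. The causes were not tested.

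Some values near 0 changed sign. Cdk2 became -0.00305 under quantile normalization. With the correction, with or without the block, Cdk2 was -0.0249, Rfc4 -0.034 and Lig1 0.042. Without 1 library, log2 fold changes ranged as follows. Ccnd1 lay between -0.175 and 0.000417, Ccne1 between -0.00827 and 0.220, Cdk2 between -0.034 and 0.054, Orc1 between -0.041 and 0.271, Cdc6 between -0.220 and 0.097. Mcm4 lay between -0.134 and 0.00396, Mcm6 between -0.026 and 0.033, Gins1 between -0.338 and 0.00199, Mcm10 between -0.169 and 0.036, Pole between -0.141 and 0.134. Rfc4 lay between -0.046 and 0.148, Lig1 between -0.141 and 0.044, Rrm1 between -0.064 and 0.055, Tyms between -0.120 and 0.069, Dut between -0.123 and 0.052. Precision was limited by 3 libraries a group, with a median SE of 0.11 over the 33.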
